A study of Mus musculus with 27 samples.

Results

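The genes described here are 7 markers of striatal projection neurons, used as a check of how much striatal tissue the cortical blocks of the study held. They are the 7 rows, of 26264 gene symbols in the deposited expression table, listed as drd1, drd2, adora2a, ppp1r1b, rgs9, pde10a and six3, and they are written below as Drd1, Drd2, Adora2a, Ppp1r1b, Rgs9, Pde10a and Six3. They were chosen by name, with earlier results of these data known. All 7 had a mean of at least 0.1 FPKM (counted fragments scaled by gene length and by the total of the library), which was the limit for testing, as had 16760 genes in all.

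RNA was sequenced from 27 blocks of about 1 mm3 of brain from 14 female 5xFAD mice aged 16 weeks. Every mouse, controls included, carried the 5xFAD transgenes, driven in neurons by the Thy1 promoter, on a C57BL/6 background. By their labels the groups differ in what was injected and in which hemisphere was taken. The mice also carry single-letter or double-letter labels, and each treatment holds mice of both kinds. The labels do not say what this label series stands for. Vehicle (4 mice: J, L, M, AH), R33 (5 mice: K, N, O, AD, AE) or R55 (5 mice: P, Q, R, AA, AB) was microinjected into the parietal associative cortex, as 500 nL of a 10 mM solution for the tool compounds, which were made to stabilize the retromer, a protein complex that sorts cargo out of endosomes. At 24 h a block was taken from the injected and from the contralateral hemisphere, except that mouse AE gave an injected library only. The libraries held 15932196 to 38077026 counted fragments. The glutamate transporter gene Slc17a7, listed here with cortical excitatory neuron genes, ran from 312 to 708 FPKM and was thus abundant in every library. Its level alone does not tell which regions a block held.

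The striatum lies beneath the cortex and beside the lateral ventricle, and almost all of its neurons are GABAergic spiny projection neurons. One class carries the dopamine receptor Drd1 and projects directly to the basal ganglia output nuclei, and the other carries Drd2 together with the adenosine receptor Adora2a and projects indirectly. Both classes share a signalling machinery built around cAMP: Ppp1r1b (DARPP-32) turns dopamine signals into inhibition of protein phosphatase 1, Rgs9 shortens G protein signals, and the phosphodiesterase Pde10a breaks down cAMP and cGMP. Six3 is a homeobox transcription factor of the developing forebrain that is needed for the Drd2 class. Cortical neurons also express some of these genes, Ppp1r1b and Pde10a among them, at lower levels. In bulk tissue a larger share of striatal cells and more RNA per cell cannot be told apart.

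The genes lie on 5 chromosomes of the mouse genome (build GRCm39, GENCODE annotation, whole gene spans, all protein coding). Drd1 is at chr13:54204872-54209760 on the minus strand, Drd2 at chr9:49251654-49319477 and Adora2a at chr10:75152560-75170628 on the plus strand. Ppp1r1b is at chr11:98239169-98248624 on the plus strand and Rgs9 at chr11:109116158-109189025 on the minus strand. Pde10a is at chr17:8744204-9205482 and Six3 at chr17:85920640-85936730, both on the plus strand. The antisense gene Six3os1 (chr17:85908079-85926066, minus strand) overlaps Six3. How strand was used in counting is not given in the sources used here, so the values of Six3 are uncertain to that extent. The lengths by which the deposited values were divided ran from 2114 bases for Ppp1r1b to 8531 bases for Rgs9.

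Promoter windows were available for 5 of the 7 genes, in RefSeq coordinates of the earlier build GRCm38.p6, as 250 bases before to 50 bases after a transcription start. Those of Drd2 and Rgs9 are shown because these were the pair of markers whose levels went together most closely across the libraries. They are chr9:49340153-49340452 on the plus strand for Drd2 and chr11:109298132-109298431 on the minus strand for Rgs9, each printed 5′ to 3′ on the strand of the gene, with matches to the GC box (GGGCGG, or CCGCCC on the other strand) and to the TATA box (TATAAA, either strand) in capitals.
Drd2: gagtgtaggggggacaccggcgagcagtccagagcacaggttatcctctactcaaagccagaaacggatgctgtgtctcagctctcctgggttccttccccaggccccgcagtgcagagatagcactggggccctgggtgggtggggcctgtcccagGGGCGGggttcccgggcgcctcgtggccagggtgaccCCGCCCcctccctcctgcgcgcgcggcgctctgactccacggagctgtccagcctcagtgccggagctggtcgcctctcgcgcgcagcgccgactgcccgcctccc
Rgs9: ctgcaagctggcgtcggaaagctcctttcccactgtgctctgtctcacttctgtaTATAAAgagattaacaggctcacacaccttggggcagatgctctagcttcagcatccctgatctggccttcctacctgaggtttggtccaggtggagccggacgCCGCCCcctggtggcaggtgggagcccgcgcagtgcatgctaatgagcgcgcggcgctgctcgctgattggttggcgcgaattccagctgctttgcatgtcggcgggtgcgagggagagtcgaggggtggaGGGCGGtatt
The GC box was in 6 of the 7 windows of these genes, Six3 being without one, and in 35.7% of all 32851 windows of the same length. The 7 windows come from 5 genes, Drd1 and Pde10a having more than 1 each. The share of G and C was 56.7 to 71.3% in the 6 windows with a match and 50% in that of Six3. Its median over all windows was 52.7%, and the part of base composition in these counts was not tested. The TATA box was in 1 of the 7 windows, that of Rgs9, and in 13.6% of all windows. The palindromic cAMP response element TGACGTCA was in 0 of the 7 windows and in 1.79% of all windows. These are matches of letters and not mapped binding sites.

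Before any comparison, 2 libraries stood apart. They were the injected hemispheres of mouse L, which received vehicle, and of mouse N, which received R33. Each of the 7 markers was high in both of them. Relative to the median of the other 25 libraries, the excess in mouse L ran from 2.70-fold for Pde10a to 18.2-fold for Drd2 among the 6 markers other than Six3, and in mouse N from 3.83-fold for Pde10a to 29.5-fold for Drd2. For 6 of the 7 markers these were the top 2 libraries of all 27, the exception being Six3, where the injected hemisphere of mouse P lay between them. Among all 16760 tested genes, the same 2 libraries were the top 2 for 133 genes (0.794%). Their depth was not unusual, at 31440843 and 33813660 fragments. Both libraries belong to the injected hemisphere, and 1 is a vehicle control, so results below are given with and without them, a choice made after the values were seen.

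**Figure D1:**
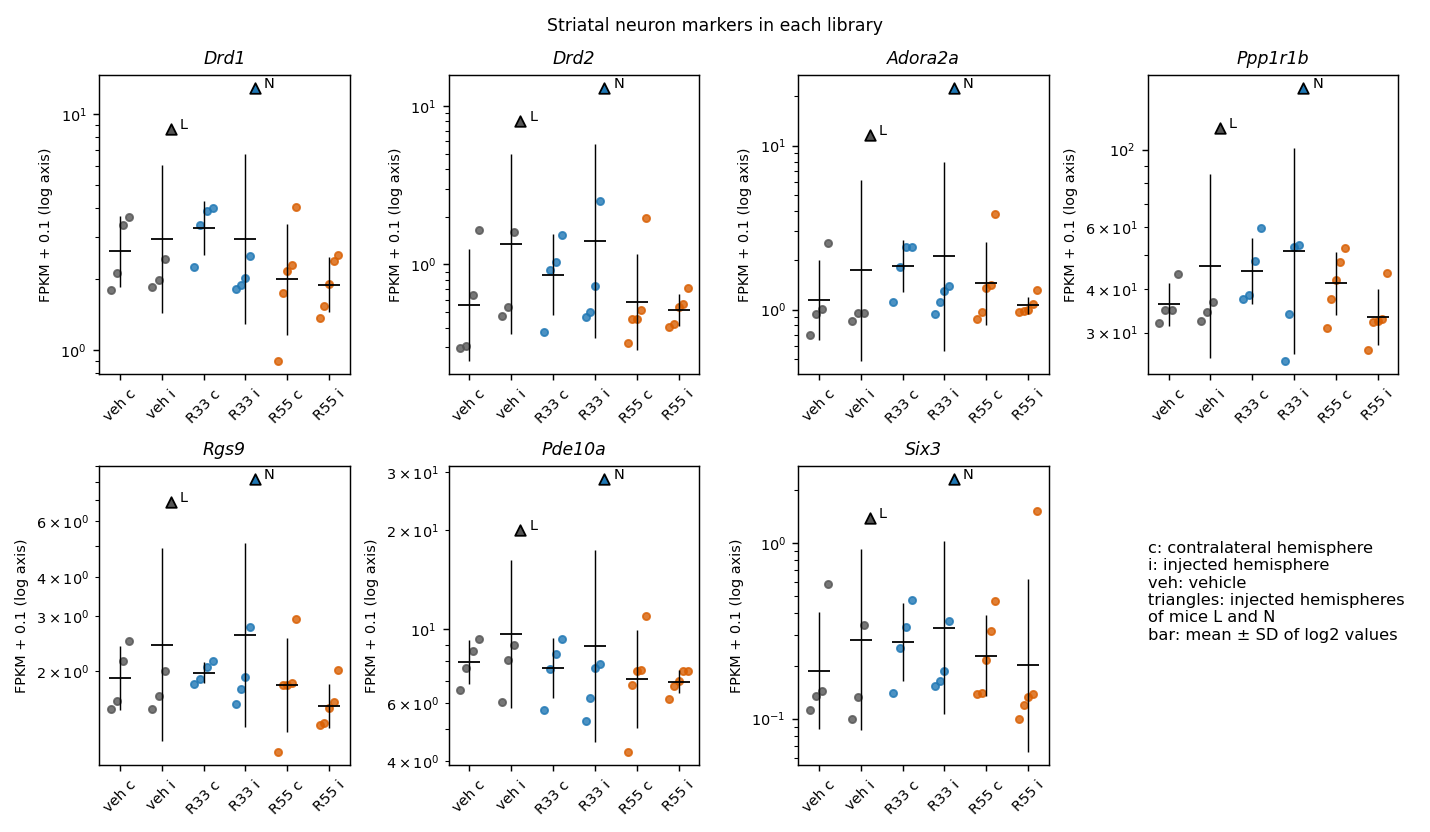
FPKM plus 0.1 of the 7 markers on log axes in each of the 27 libraries, by treatment and hemisphere. Points are libraries, triangles are the injected hemispheres of mice L and N, and bars are the mean ± SD of log2 values. The triangles lie above every other library for 6 genes, and for Six3 1 R55 injected library (mouse P, 1.42 FPKM) lies between them.

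Drd1, the receptor of the direct pathway, was present in every library. In the injected hemispheres it was 2.34, 8.54, 1.75 and 1.88 FPKM in vehicle mice J, L, M and AH, 2.40, 12.8, 1.72, 1.93 and 1.79 FPKM in R33 mice K, N, O, AD and AE, and 2.44, 2.27, 1.45, 1.81 and 1.26 FPKM in R55 mice P, Q, R, AA and AB. In the contralateral hemispheres it was 3.58, 3.27, 1.70 and 2.02 FPKM in vehicle mice J, L, M and AH, 3.90, 3.78, 3.29 and 2.15 FPKM in R33 mice K, N, O and AD, and 3.95, 2.19, 0.803, 2.07 and 1.64 FPKM in R55 mice P, Q, R, AA and AB. Apart from mice L and N in the injected hemisphere, the groups overlapped, and the other 25 libraries spanned 4.92-fold.

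Drd2, the receptor of the indirect pathway, was the scarcest receptor in most blocks and the one with the largest ratio in mice L and N after Six3. In the injected hemispheres it was 1.497, 7.93, 0.436 and 0.373 FPKM in vehicle mice J, L, M and AH, 0.369, 12.9, 2.40, 0.627 and 0.399 FPKM in R33 mice K, N, O, AD and AE, and 0.612, 0.436, 0.321, 0.466 and 0.301 FPKM in R55 mice P, Q, R, AA and AB. In the contralateral hemispheres it was 1.55, 0.542, 0.205 and 0.196 FPKM in vehicle mice J, L, M and AH, 1.43, 0.936, 0.821 and 0.277 FPKM in R33 mice K, N, O and AD, and 1.85, 0.354, 0.219, 0.353 and 0.417 FPKM in R55 mice P, Q, R, AA and AB. The groups overlapped throughout, and the same few mice (J, K, N, O and P) accounted for the values above 0.8 FPKM, mouse L in the injected hemisphere aside. With a median of 30 fragments in the 25 other libraries, Drd2 is also the marker after Six3 with the largest counting error.

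Adora2a marks the same neurons as Drd2, and its lower value of the 2 libraries was 3.11-fold above the highest of the other 25, against 3.30-fold for Drd2. In the injected hemispheres it was 0.859, 11.5, 0.851 and 0.756 FPKM in vehicle mice J, L, M and AH, 1.203, 22.3, 0.840, 1.30 and 1.02 FPKM in R33 mice K, N, O, AD and AE, and 0.883, 0.978, 0.864, 0.892 and 1.21 FPKM in R55 mice P, Q, R, AA and AB. In the contralateral hemispheres it was 2.46, 0.909, 0.599 and 0.840 FPKM in vehicle mice J, L, M and AH, 2.32, 1.73, 2.30 and 1.004 FPKM in R33 mice K, N, O and AD, and 3.71, 0.780, 1.32, 0.869 and 1.26 FPKM in R55 mice P, Q, R, AA and AB. Every injected library other than those of mice L and N was at or below 1.30 FPKM, whereas 5 contralateral libraries (J, K, N, O and P) were at 1.73 FPKM or above.

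Ppp1r1b, the phosphatase inhibitor that integrates dopamine and glutamate signals, was the most abundant marker per length. In the injected hemispheres it was 32.3, 114.8, 36.5 and 34.2 FPKM in vehicle mice J, L, M and AH, 53.1, 149.6, 24.9, 52.6 and 33.8 FPKM in R33 mice K, N, O, AD and AE, and 32.1, 32.2, 44.2, 26.6 and 32.7 FPKM in R55 mice P, Q, R, AA and AB. In the contralateral hemispheres it ran from 31.8 to 44.0 FPKM in vehicle mice, from 37.4 to 59.4 FPKM in R33 mice and from 30.8 to 52.3 FPKM in R55 mice. The other 25 libraries spanned only 2.39-fold, against 12.2-fold for Drd2.

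Rgs9 and Pde10a, which end G protein and cyclic nucleotide signals, had the narrowest spread beside Ppp1r1b. Rgs9 was 6.83 FPKM in mouse L and 8.07 FPKM in mouse N on the injected side and 1.01 to 2.83 FPKM in the other 25 libraries. Pde10a was 19.97 FPKM in mouse L and 28.3 FPKM in mouse N on the injected side and 4.16 to 10.9 FPKM elsewhere, so the lower of the pair was still 1.83-fold above the highest of the others. For both genes the highest of the other 25 libraries was the contralateral hemisphere of mouse P.

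Six3, the transcription factor, was close to the limit of detection. It was 1.29 FPKM in mouse L and 2.19 FPKM in mouse N on the injected side, and its median in the other 25 libraries was 0.0538 FPKM, which stood for 6 fragments. It was listed at 0 in 2 libraries, the injected hemispheres of mice M and AB. The injected hemisphere of mouse P, which received R55, reached 1.42 FPKM of Six3 while Drd2 (0.612 FPKM), Adora2a (0.883 FPKM) and Ppp1r1b (32.1 FPKM) stayed within the range of the other libraries. In that same library the 7 thalamic neuron genes (Tcf7l2, Lef1, Prkcd, Slc17a6, Ramp3, Rgs16 and Zic1) averaged 1.90 log2 units above their medians, the highest of all 27, with Prkcd at 50.7 FPKM against a median of 5.17 FPKM. Their part in the Six3 value was not tested. Six3os1, the overlapping antisense gene, was highest in mouse N on the injected side (0.324 FPKM), followed by the contralateral side of mouse J (0.201 FPKM) and the injected side of mouse L (0.161 FPKM), against a median of 0.0164 FPKM.

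The hemispheres of mice L and N differed widely. In mouse L the injected side exceeded the contralateral side 14.6-fold for Drd2, 12.7-fold for Adora2a, 3.61-fold for Ppp1r1b and 2.61-fold for Drd1. In mouse N the same ratios were 13.7-fold, 12.9-fold, 4.01-fold and 3.38-fold. The contralateral libraries of these mice lay among the other libraries for all 7 genes, so the excess was in 1 block of each mouse.

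**Figure D2:**
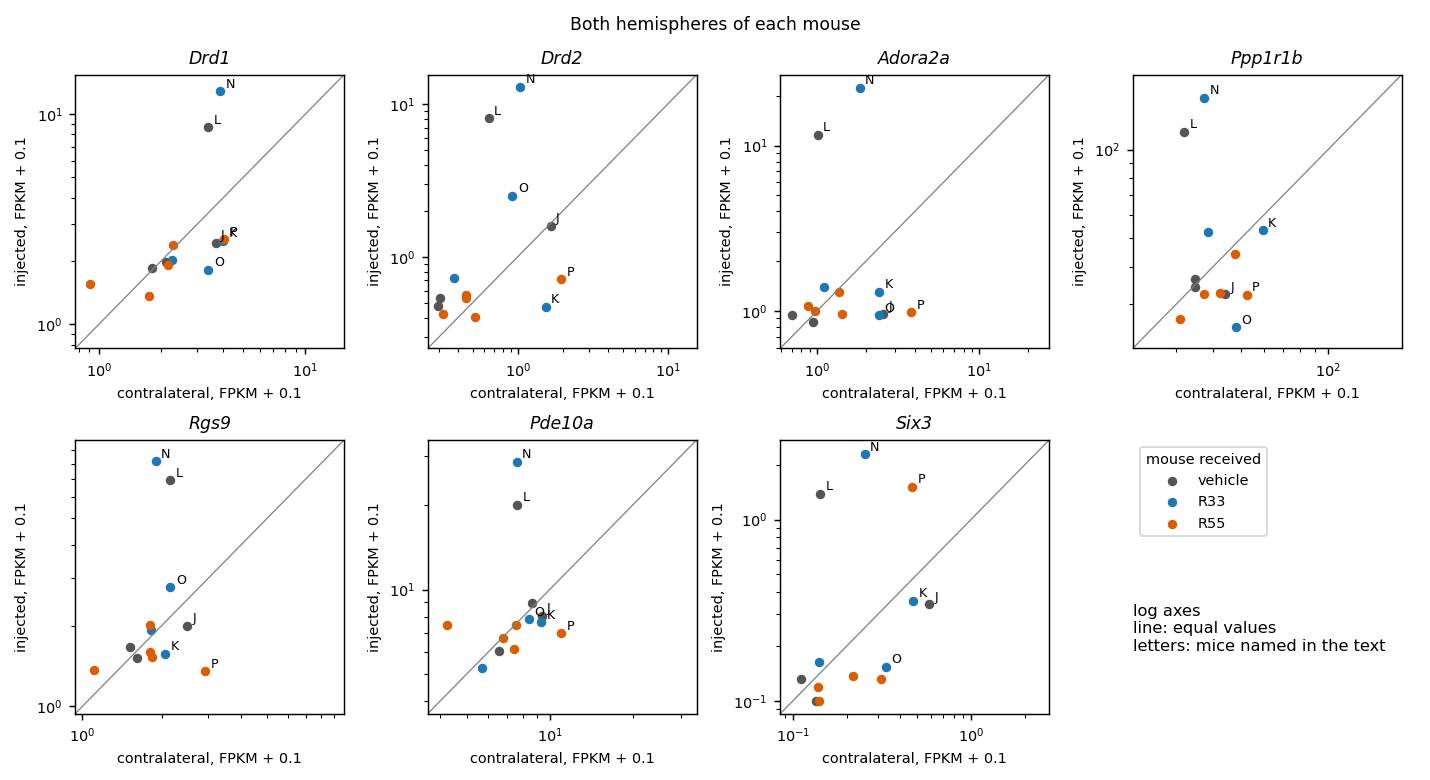
FPKM plus 0.1 of each marker in the injected (vertical, log axis) against the contralateral hemisphere (horizontal, log axis) of the 13 mice with both. The grey line marks equal values. Mice L and N lie far above the line for all 7 genes, 14.6-fold and 13.7-fold for Drd2, while mouse P lies below it for 6 and above it for Six3.

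Other striatal genes were high in the same 2 libraries. Of 23 further genes of striatal projection neurons, 15 (65.2%) had these as their top 2 libraries. Over 2-fold above the median of the other 25 libraries in both were 8 (34.8%), against 159 of 16760 tested genes (0.949%). Genes with a median of 0 there had no ratio and were not counted as over 2-fold. Isl1 was such a gene, at 0.315 FPKM in mouse L and 0.644 FPKM in mouse N. Its mean of 0.0595 FPKM was below the limit for testing. Gpr6, an orphan receptor of the indirect pathway, reached 5.17 FPKM in mouse L and 7.63 FPKM in mouse N against a median of 0.959 FPKM over all libraries. Rxrg, a retinoid receptor, reached 5.47 and 7.497 FPKM against 0.964 FPKM, and the sodium channel subunit Scn4b 71.2 and 101.8 FPKM against 26.4 FPKM. Pde1b, a calmodulin-dependent phosphodiesterase and the most abundant of the 23 per length, reached 69.6 and 79.7 FPKM against 40.1 FPKM.

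Genes of both projection neuron classes were among them. The neuropeptide genes Penk (indirect pathway) and Tac1 (direct pathway) were picked out of that list after their values were seen. Penk was 84.2 FPKM in mouse L and 142.3 FPKM in mouse N against a median of 29.8 FPKM. Tac1 was 17.7 and 29.8 FPKM against 9.91 FPKM, and its highest value in the other 25 libraries was 16.8 FPKM. Some genes of the list did not go fully with the rest, the direct pathway genes Pdyn, Chrm4 and Ebf1 among them. The neuropeptide gene Pdyn was 11.6 FPKM in mouse L and 19.5 FPKM in mouse N against 9.65 FPKM. Its second highest library was the contralateral hemisphere of mouse O (12.7 FPKM). The muscarinic receptor gene Chrm4 was 18.5 and 18.6 FPKM against 15.9 FPKM, and the transcription factor gene Ebf1 was highest in the injected hemisphere of mouse O, at 3.58 FPKM.

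The 5 genes of striatal cholinergic interneurons (Chat, Slc5a7, Slc18a3, Lhx8 and Gbx2) were scarce everywhere, their sum not passing 1.61 FPKM in any library. Of the 5, 3 had mice L and N on the injected side as their top 2 libraries. Chat, which makes acetylcholine, was 0.645 FPKM in mouse L and 0.453 FPKM in mouse N on the injected side against a median of 0.0980 FPKM, and Slc5a7 was 0.577 and 0.457 FPKM against 0.163 FPKM. Lhx8, named after its values were seen, was listed at 0 in 17 libraries and had its 2 highest values, 0.195 FPKM in mouse N and 0.0965 FPKM in mouse L, in the same blocks. The remaining pair did not follow: the second library of Slc18a3 was the contralateral hemisphere of mouse AH (0.346 FPKM), and Gbx2 was highest in the injected hemispheres of mice P and J (0.960 and 0.831 FPKM) and was 0.906-fold of the median in mouse L.

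Genes of other regions and of shared signalling were also compared in these blocks. The lists held 10 cortical excitatory, 7 hippocampal, 7 thalamic, 3 GABAergic, 6 myelinating oligodendrocyte and 21 dopamine and cAMP signalling genes. None of these genes had mice L and N on the injected side as its top 2 libraries. None with a median above 0 in the other 25 libraries was over 2-fold above it in both. Drd3, of the dopamine and cAMP list, had a median of 0 there and thus no ratio. It was 0.0656 FPKM in mouse L and 0.122 FPKM in mouse N. The 10 cortical genes averaged 0.147 log2 units above their medians in mouse L and 0.0597 in mouse N, with Slc17a7 at 564.5 and 477 FPKM against a median of 530.5 FPKM. Single cortical genes went both ways relative to the median of the other 25 libraries. They ran from 0.520-fold (Neurod6) to 3.09-fold (Nr4a2) in mouse N and from 0.924-fold (Fezf2) to 1.34-fold (Tbr1) in mouse L. The dopamine and cAMP list averaged 0.174 in mouse L and 0.173 in mouse N, the 2 highest means of that list among the 27 libraries. Its medians there were 0.0778 and 0.151. Ubiquitous partners of the markers in that list differed little from the median of the other 25 libraries. The kinase subunits Prkaca and Prkacb were 1.02-fold and 1.05-fold of it in mouse L and 0.906-fold and 1.06-fold in mouse N. The phosphatase subunits Ppp1ca and Ppp1cb were 1.06-fold and 0.831-fold in mouse L and 1.14-fold and 1.02-fold in mouse N. The GABAergic list averaged 0.408 in mouse N and 0.253 in mouse L, the highest means after the injected hemisphere of mouse O (0.905). The hippocampal list averaged -0.947 in mouse N and -0.599 in mouse L, and in the injected library where it was highest, that of mouse M (2.45), the marker mean was -0.160. Within the dopamine and cAMP list, Gng7, a G protein subunit of striatal neurons singled out after its values were seen, was 42.4 FPKM in mouse L and 74.1 FPKM in mouse N against 31.6 FPKM.

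Choroid plexus genes moved with the markers in several blocks. The choroid plexus is the secretory tissue inside the ventricles, and its 4 listed genes (Ttr, Folr1, Kl and Kcnj13) were all highest in the injected hemisphere of mouse N, where Ttr reached 1616 FPKM against a median of 14.5 FPKM. In mouse L on the injected side Ttr was 146 FPKM and Folr1 1.67 FPKM against 0.269 FPKM, while Kcnj13 was 0.604 FPKM against 0.656 FPKM. The summed level of the 4 genes ran from 6.35 to 150.4 FPKM in vehicle injected, 7.31 to 1132 in vehicle contralateral, 6.42 to 1654 in R33 injected, 9.17 to 714.9 in R33 contralateral, 4.07 to 68.2 in R55 injected and 6.18 to 153 in R55 contralateral libraries, and none of the 4 was at 0 throughout a group.

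When libraries were ordered by the mean log2 difference of the 7 markers from their medians, those after mice N (3.05) and L (2.47) on the injected side were the contralateral hemispheres of mice P (1.11), J (0.910), K (0.879) and O (0.611). The same 4 contralateral libraries had choroid plexus means of 1.67, 3.90, 2.83 and 2.72 log2 units. The relation had exceptions: the injected hemisphere of mouse K had a choroid plexus mean of 3.97 with a marker mean of 0.234, and the contralateral hemisphere of mouse N had a marker mean of 0.451 with a choroid plexus mean of -0.598. Mice N, L, P, J, K and O all carry single-letter labels. The highest library of a mouse with a double-letter label was the injected hemisphere of mouse AD, at place 12 of this order (0.0977). Mice M, Q and R, also with single-letter labels, had negative marker means on both sides. The part of the label series, of choroid plexus or of the plane of dissection in the marker levels was not tested.

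**Figure D3:**
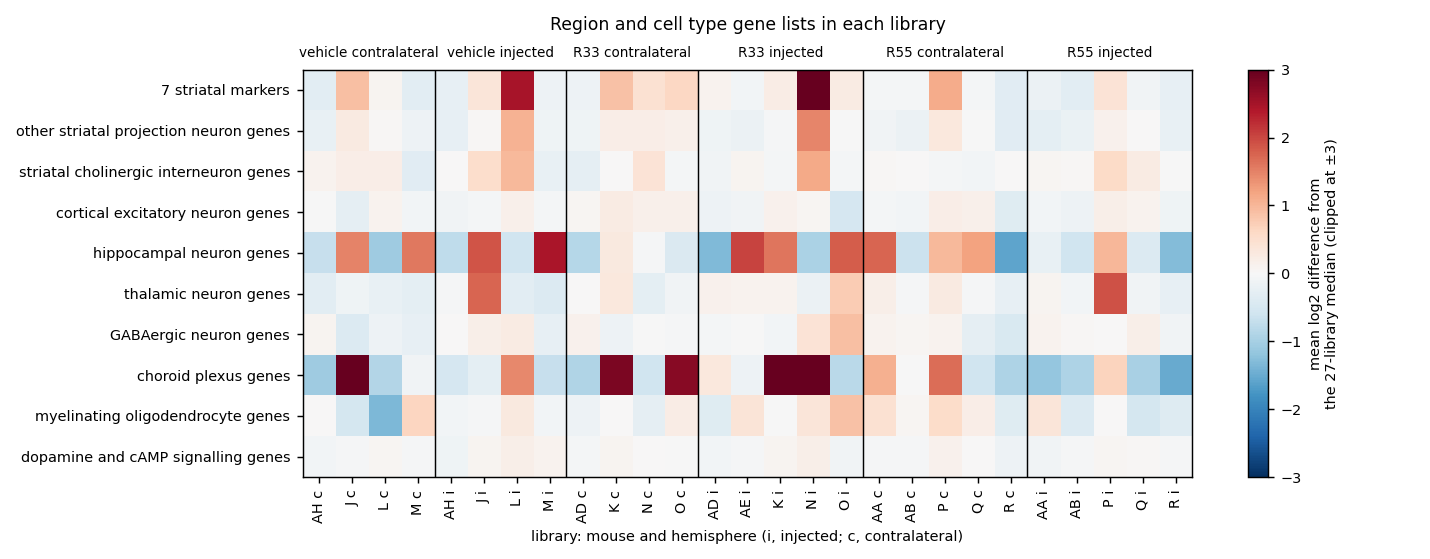
Mean log2 difference from the 27-library median of each gene, averaged over the genes of each list (rows), in each library (columns, by mouse and hemisphere), with colours clipped at 3 in either direction. The striatal rows stand out in L i (2.47 for the 7 markers) and N i (3.05), the choroid plexus row in N i, in K i (3.97) and in the contralateral libraries of J, K, O and P, the thalamic row in J i and P i (1.90), and the hippocampal row in M i (2.45), AE i (2.02), J i (1.88), O i (1.81) and AA c (1.75).

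One further library separated the markers from each other. In the injected hemisphere of mouse O, which received R33, Drd2 (2.40 FPKM) and Rgs9 (2.67 FPKM) were above the median of all libraries while Drd1 (1.72 FPKM), Adora2a (0.840 FPKM) and Ppp1r1b (24.9 FPKM, the lowest of all) were below it. The cortical excitatory list had its lowest mean there (-0.500), and the GABAergic list (0.905) and the oligodendrocyte list (0.885) had their highest. Genes known from the midbrain and diencephalon, picked after their values were seen, were highest in this library: Pax7 was 5.39 FPKM against a median of 0, Gata3 5.16 FPKM against 0.0195 FPKM, and Sox14 5.09 FPKM against a median of 0. Drd2 is also expressed by neurons outside the striatum, and the part of those genes' cells in its value was not tested.

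The markers were correlated with each other across libraries, and less so without the 2 high blocks. Over the 27 libraries, which include 2 libraries of most mice, Pearson's r of log2(FPKM + 0.1) for the 21 pairs of markers ran from 0.672 (Pde10a with Six3) to 0.923 (Drd2 with Rgs9), with a median of 0.803. Without the injected libraries of mice L and N, r ran from -0.00151 (Ppp1r1b with Rgs9) to 0.792 (Drd2 with Rgs9), with a median of 0.499. These values describe the libraries and carry no test.

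The tested genes most like each marker by the same r were few. The 3 closest genes of each of the 7 markers, 21 places in all, were filled by 14 different genes, with r from 0.825 to 0.943, and from 0.289 to 0.857 over the 25 other libraries. Drd1 was closest to Gpr6 (0.876), Drd2 to Slc35d3 (0.942), Adora2a to Serpina9 (0.943), Ppp1r1b to Sh3rf2 (0.899), Rgs9 to Slc35d3 (0.904), Pde10a to Serpina9 (0.832) and Six3 to Nexn (0.849). Of the 14 genes, 5 (Gpr6, Rxrg, Syndig1l, Rarb and Pde1b) were in the list of other striatal genes. Sh3rf2 held 4 of the 21 places and Serpina9 held 3. Both were scarce, with medians of 0.124 and 0.0859 FPKM over all libraries, near the 0.1 FPKM added to each value. So were Htr1d (0.0781 FPKM) and Dnah6 (0.0832 FPKM). The remaining ones were Htr1d, a serotonin receptor gene, Ido1, an enzyme gene of tryptophan breakdown, Cd4, known as a T cell coreceptor gene, Scube3 and Dnah6.

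The treatment comparisons ask whether R55 or R33 changed the level of these genes, with 1 value per mouse, the mean of its hemispheres. Per mouse, Drd2 averaged 1.59 ± 1.86 FPKM with vehicle (SD, n = 4), 2.05 ± 2.75 FPKM with R33 (n = 5) and 0.533 ± 0.395 FPKM with R55 (n = 5). Ppp1r1b averaged 45.3 ± 18.7, 53.1 ± 24.2 and 37.8 ± 6.68 FPKM in the same order. The values below are differences of log2(FPKM + 0.1) ± SE from limma, with p-values adjusted over all 16760 tested genes. None of the 7 markers passed an adjusted p of 0.05 for R55 against vehicle, and neither did any tested gene (0%). Without adjustment, 578 genes (3.45%) had p under 0.05 and 0 of the 7 markers did. By limma voom on the recovered fragments, 0 genes passed after adjustment, and 591 had an unadjusted p under 0.05.

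All 7 markers were lower in R55 than in vehicle mice by their estimates, from -0.10 ± 0.64 for Six3 to -0.66 ± 0.64 for Drd2 (adjusted p = 0.994 and 0.941). Their median was -0.32, against 0.03 for all tested genes. Lists of other tissue and cell types went both ways by their estimates. Of hippocampal genes 7 of 7 were lower, with a median of -0.43 (-0.40 without the injected libraries of mice L and N). Of choroid plexus genes 3 of 4 were lower, with a median of -0.81 (-0.43). Higher were 5 of 7 thalamic, 6 of 6 oligodendrocyte and 2 of 3 GABAergic genes, with medians of 0.16 (0.075), 0.13 (0.34) and 0.12 (0.17). None of these genes was called, and their part in the marker values was not tested. The 95% interval for Drd2 ran from -2.02 to 0.70 and that for Ppp1r1b, the most precisely measured, from -0.63 to 0.35. These estimates included mouse L, a vehicle mouse. Without the injected libraries of mice L and N, the value of Adora2a turned to 0.25 ± 0.24, that of Ppp1r1b to 0.09 ± 0.15 and that of Six3 to 0.31 ± 0.55, that of Drd2 came to -0.20 ± 0.45, and none passed (lowest adjusted p of a marker 0.890 by limma). Then 0 of the 7 had an unadjusted p under 0.05, against 4.3% of tested genes.

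For R33 against vehicle no tested gene passed either (0%), and 478 (2.85%) had an unadjusted p under 0.05, among them 0 of the 7 markers. Voom gave 0 and 489 genes. Both groups hold 1 of the high blocks. The estimates ran from -0.12 ± 0.25 for Pde10a to 0.42 ± 0.49 for Adora2a (adjusted p = 0.997 for both), with a median of 0.19 for the markers and 0.01 for all tested genes. Leaving out the 2 libraries kept the sign of all 7 and gave 0.50 ± 0.24 for Adora2a (unadjusted p = 0.0530 and adjusted p = 0.997 by limma), with 0 of the 7 at an unadjusted p under 0.05, against 2.77% of tested genes. Leaving out a single mouse moved the estimates both ways: Drd2 was -0.18 without mouse N and 0.73 without mouse L, and Rgs9 was -0.14 and 0.34.

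R55 and R33 were given at the same dose and time. The direct comparison called no tested gene (0%), with 207 genes (1.24%) and 0 of the 7 markers at an unadjusted p under 0.05, and 0 and 210 genes by voom. All 7 estimates were lower with R55, from -0.20 ± 0.23 for Pde10a to -0.93 ± 0.60 for Drd2, and the 95% interval of Drd2 ran from -2.22 to 0.36. The median of the markers was -0.43, against 0.01 for all tested genes, -1.49 for the choroid plexus genes (4 of 4 lower) and -0.51 for the hippocampal genes (5 of 7 lower). The thalamic median was 0.07 (5 of 7 higher), the GABAergic -0.09 (3 of 3 lower) and the oligodendrocyte -0.135 (6 of 6 lower). Mouse N is an R33 mouse, and without the 2 high libraries the median was -0.21, with Pde10a at -0.01 ± 0.14 and Drd2 at -0.57 ± 0.43, while the choroid plexus and hippocampal medians were -1.06 and -0.50, and 0 of the 7 markers had an unadjusted p under 0.05, against 0.817% of tested genes. The 3 treatment comparisons share groups of mice and are not independent of each other.

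**Figure D4:**
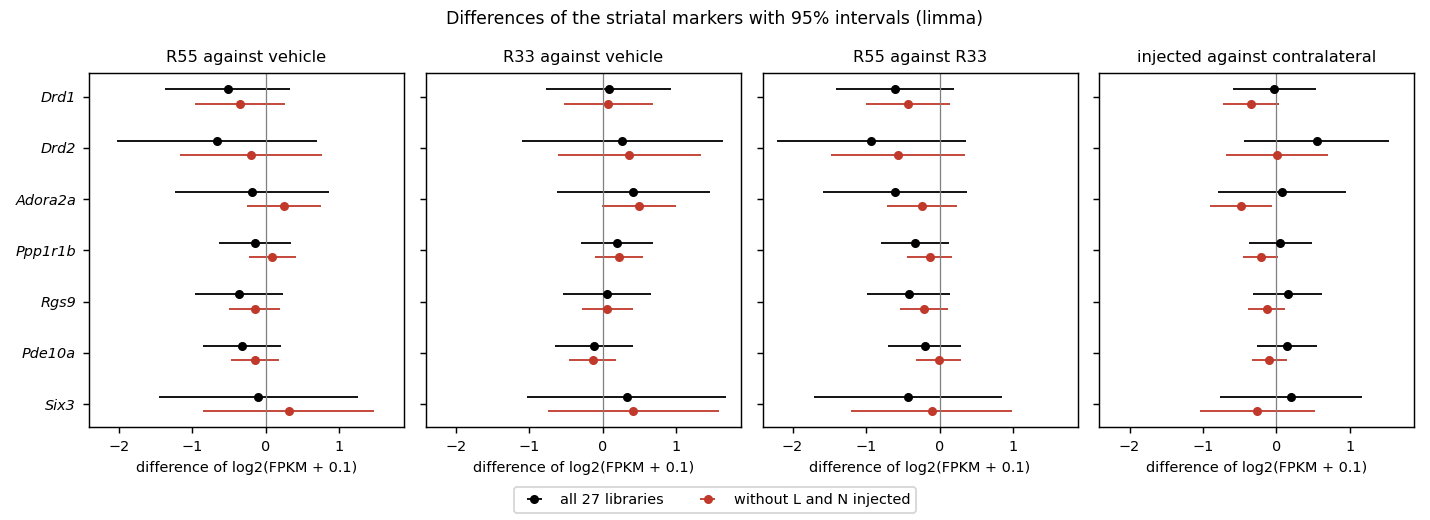
Differences of log2(FPKM + 0.1) for the 7 markers (points) with 95% intervals (lines) in the 4 comparisons, from all 27 libraries (black) and without the injected libraries of mice L and N (red). Of the black intervals all include 0. Of the red ones only that of Adora2a for injected against contralateral does not (-0.48 ± 0.20 SE), and it did not pass after adjustment.

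The comparison of hemispheres asks whether the injection itself, or the block taken on that side, changed the markers. Over the 27 libraries, with treatment as a term, no tested gene passed (0%), and 685 (4.09%) had an unadjusted p under 0.05, among them 0 of the 7 markers. Voom gave 0 and 712 genes. With the mouse as a block over the 13 pairs, 0 genes passed and 1117 had an unadjusted p under 0.05, again with 0 of the 7 markers. Estimates ran from -0.03 ± 0.28 for Drd1 to 0.55 ± 0.48 for Drd2 (adjusted p = 1 for both), and 6 of 7 were higher in the injected hemisphere.

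This direction rested on the 2 high blocks. Mouse by mouse, Drd2 was higher on the injected side in 9 of 13 mice, Rgs9 in 7, Adora2a in 6, Drd1 and Six3 in 5, and Ppp1r1b and Pde10a in 4. Without the injected libraries of mice L and N, 6 of 7 estimates were below 0. Adora2a was then -0.48 ± 0.20 (unadjusted p = 0.0282, adjusted p = 0.9998 by limma), the only marker with an unadjusted p under 0.05, as had 4.49% of all tested genes. Drd1 was -0.35 ± 0.18 and Drd2 0.01 ± 0.34. With the mouse as a block as well, 2 of the 7 (Adora2a and Ppp1r1b) had an unadjusted p under 0.05, as had 5.62% of all tested genes, and none passed after adjustment. Ppp1r1b was lower on the injected side in 5 of 5 R55 mice and in 2 of 4 vehicle mice. The difference between R55 and vehicle mice in that paired difference was -0.68 ± 0.54 and did not pass (limma, adjusted p = 0.838). The vehicle mean of 0.36 rested on mouse L (1.85). Without mouse L it was -0.13, and without mice L and N the difference from R55 mice was -0.19 ± 0.28 (limma, adjusted p = 0.999).

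The other fixed lists gave no call in any of the 4 comparisons, and neither did any of the 16760 tested genes (0%). None of the 22 other striatal projection neuron genes tested of 23 passed in either direction. For R55 against vehicle, 15 of the 22 were lower and 7 higher, from Lrrc10b (-0.93 ± 0.84) to Scn4b (0.25 ± 0.30). For R33 against vehicle 15 were higher and 7 lower, for R55 against R33 20 were lower and 2 higher, and for injected against contralateral 13 were higher and 9 lower. Without the injected libraries of mice L and N these counts were 11 higher and 11 lower, 15 and 7, 8 and 14, and 8 and 14, in the same order of comparisons, so the majority turned for injected against contralateral and was lost for R55 against vehicle. Of the dopamine and cAMP signalling genes 19 of 21 were tested and 0 passed. The dopamine receptor gene Drd5 was -1.03 ± 0.61 for R55 against vehicle (adjusted p = 0.941), and Drd4 was 0.51 ± 0.22 for R55 against R33 (adjusted p = 1).

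Whether a high or low level went with the mouse or with the block was asked over the 13 mice with both hemispheres, as the correlation of log2(FPKM + 0.1) between the sides, with two-sided permutation tests (100000 permutations) and p-values adjusted over the 7 correlations. Drd1 had Pearson's r = 0.548 (permutation p = 0.0579, adjusted 0.406) and Spearman's rho = 0.797 (permutation p = 0.00191, adjusted 0.0134). Mice J, K, L, N and P were high on both sides and mice M, AB and R low. The call was lost on deviations from the treatment means, where rho was 0.665 (permutation p = 0.0160, adjusted 0.108) and r was 0.451 (permutation p = 0.125, adjusted 0.583). Without mice L and N, the farthest from the median of the injected side, r was 0.757 over 11 mice (permutation p = 0.00674, adjusted 0.0472). Within the 9 mice with single-letter labels r was 0.474 and rho was 0.667 (permutation p = 0.165 and 0.0581, adjusted 0.759 and 0.407).

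None of the other 6 markers passed by either measure after adjustment. Six3 had r = 0.376 and rho = 0.630 (permutation p = 0.204 and 0.0233, adjusted 0.527 and 0.0817), and Pde10a r = 0.137 and rho = 0.555 (permutation p = 0.631 and 0.0521, adjusted 0.736 and 0.122). Drd2 had r = 0.363 and rho = 0.412, Rgs9 0.194 and 0.269, Adora2a -0.0215 and 0.0604, and Ppp1r1b -0.194 and -0.0989. For Adora2a the level on one side of a mouse thus carried no detectable relation to the other over these 13 mice.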

How the data were processed

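The authors isolated RNA, made stranded mRNA libraries and aligned them with HISAT2 to GRCm39. The values the authors deposited are FPKM per library and gene symbol. The counting tool and annotation are not given in the sources used here. The table also carried 32 header lines among its values, and these were removed. Of its 32 libraries, 27 matched a sample label and 5 were not used here. Fragments and gene lengths were recovered from the FPKM, 100.0% of values being whole fragments within 0.01. In the median library of 27441308 fragments, 1 fragment on a gene of 2000 bases was 0.0182 FPKM.

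Values were taken as log2(FPKM + 0.1), a scale that understates changes of scarce genes. Genes averaging 0.1 FPKM or more were tested with limma 3.58.1 (trend, Benjamini-Hochberg, call at adjusted p under 0.05), and the code was tested on simulated data. Treatments were compared over 14 mice with the hemispheres averaged. The study states treatment and hemisphere as factors, and that fit over 27 libraries was an alternative. The hemispheres of a mouse are paired by its label: over all tested genes, deviations from the group means correlated between the sides at 0.252 on average (0.0188 to 0.419 over 13 mice).

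The markers and the gene lists were chosen with earlier results of these data known. Most other genes were named by rule: per list the largest and smallest difference and the highest mean, and per marker the 3 genes of highest Pearson's r, markers left out. Those outside it were named after their values were seen. Alternatives were another pseudocount, filter and scaling (median-of-ratios size factors, 0.568 to 1.36), a length trend, voom, the label series, each mouse left out, each hemisphere alone, the mouse as block, and the 2 high libraries left out. Promoter windows came from RefSeq.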

Additional observations from a re-analysis of the deposited data

Results flagged for a closer look

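Within each of the 6 groups of 4 or 5 libraries, the highest and the lowest log2 value of each marker were compared with the nearest other value by Dixon's ratio. Of 42 combinations of marker and group, 8 had a library that far from the rest, and chance gives about 1 in 20 such combinations. The combinations are not independent, since the markers move together.

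Among the injected hemispheres, 5 of the 8 were mice L and N. Mouse L stood apart among vehicle mice for Adora2a (11.5 FPKM) and Ppp1r1b (115 FPKM). Mouse N stood apart among R33 mice for Drd1 (12.8 FPKM), Adora2a (22.3 FPKM) and Pde10a (28.3 FPKM). No other marker passed this limit in these 2 libraries.

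The other 3 were in other libraries. Mouse P stood apart among R55 contralateral libraries for Drd2 (1.85 FPKM) and among R55 injected libraries for Six3 (1.42 FPKM), and mouse J among vehicle contralateral libraries for Six3 (0.481 FPKM).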

How the results depend on the processing

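No marker passed an adjusted p of 0.05 in any of the 106 fits under an alternative, the lowest adjusted p being 0.661. Of 738 marker differences under an alternative, 680 kept the sign of the reported value and 58 did not. Without the injected libraries of mice L and N (chosen after seeing the data), R55 against vehicle turned to 0.25 for Adora2a, 0.089 for Ppp1r1b and 0.31 for Six3, and injected against contralateral to -0.48 for Adora2a, -0.21 for Ppp1r1b, -0.13 for Rgs9, -0.095 for Pde10a and -0.26 for Six3. With the mouse as a block as well, the latter were -0.48, -0.24, -0.12, -0.084 and -0.28, and 2 markers had an unadjusted p under 0.05, as had 942 of the tested genes (5.62%). In the injected hemisphere alone without these libraries, R55 against vehicle was 0.20 for Adora2a and 0.29 for Six3, R33 against vehicle was -0.022 for Drd1, and R55 against R33 was 0.064 for Pde10a.

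In the contralateral hemisphere alone, R55 against vehicle was 0.062 for Drd2, 0.34 for Adora2a, 0.20 for Ppp1r1b and 0.28 for Six3. The highest mean log2 difference of the 7 markers on that side was 1.11 (mouse P). By Dixon's ratio, mouse P stood apart there for Drd2 and mouse J for Six3. In the injected hemisphere alone, R33 against vehicle was -0.0062 for Drd1. With the mouse as replicate block, Drd1 was 0.024 for injected against contralateral, and 0.18 in vehicle mice alone; the block changed no other sign and no call. Six3 was -0.066 for injected against contralateral by voom and 0.074 for R55 against vehicle with the label series as a term.

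Leaving out each mouse in turn moved some signs, with the extremes mostly set by mice L and N. For R55 against vehicle the range was -0.45 to 0.24 for Adora2a, -0.22 to 0.045 for Ppp1r1b and -0.59 to 0.22 for Six3. For R33 against vehicle it was -0.23 to 0.40 for Drd1, -0.18 to 0.73 for Drd2, -0.022 to 0.85 for Adora2a, -0.14 to 0.34 for Rgs9, -0.34 to 0.043 for Pde10a and -0.023 to 0.65 for Six3. For R55 against R33 it was -0.34 to 0.015 for Pde10a. For injected against contralateral it was -0.14 to 0.033 for Drd1, -0.20 to 0.24 for Adora2a, -0.094 to 0.12 for Ppp1r1b and -0.053 to 0.31 for Six3.

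Between the hemispheres, 1 marker (Drd1) instead of 0 passed by Pearson's r without the 2 mice farthest from the median, where r was 0.0232 for Adora2a and 0.324 for Ppp1r1b, and r was -0.0892 for Pde10a in the mice with single-letter labels. By Spearman's rho the 1 call (Drd1) went to 0 on deviations from the treatment means (adjusted permutation p = 0.108) and to 0 in the mice with single-letter labels (adjusted permutation p = 0.407), where rho turned to -0.132 and -0.0333 for Adora2a and to -0.044 and -0.10 for Pde10a, and rho of Ppp1r1b was 0.109 without the 2 farthest mice. Only 4 mice with double-letter labels had both hemispheres, too few to be run. The number of genes with an unadjusted p under 0.05 ran over the alternatives from 222 to 1752 for R55 against vehicle, 213 to 1104 for R33 against vehicle, 84 to 1067 for R55 against R33 and 448 to 1117 for injected against contralateral, and at most 1 gene, never a marker, passed after adjustment. The count of 30 fragments for Drd2 and 6 for Six3 in a typical library limits what these can show.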
